A study of Danio rerio with 16 samples.

Results

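The genes described here are 200 abundant, ovary-enriched genes of the adult zebrafish gonad, out of 28353 genes with normalized read counts and 32520 genes counted. They were chosen from the measured values. A gene had to reach a normalized read count of at least 500 in each of the 8 females, which 3007 genes did. These genes were ranked by the log2 ratio of the female mean to the male mean, with 1 added to both means, and the first 200 were taken after named egg coat genes and a few known oocyte genes had been left out, of which 14 would otherwise have ranked among them. The difference between ovary and testis is therefore how the genes were found and is given below as a description, without a test.

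Exemestane (EM) is a steroidal inhibitor of aromatase, the enzyme that makes estrogens from androgens. Adult AB strain zebrafish, 4 months old, were kept for 32 days in water with EM, and gonad RNA was sequenced from single fish, 2 per sex and concentration. The EM-females and EM-males (6 fish each) received 50, 100 or 200 μg/L EM dissolved in DMSO, and the control females and control males (2 fish each) are those labelled 0 μg/L, treated here as the study's solvent controls although no label says that they received DMSO. There was 1 tank per treatment, holding 3 fish of each sex, so that tank and treatment cannot be told apart and a p-value measures only the spread between fish.

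A growing oocyte fills its cytoplasm with messenger RNA, histones, cell cycle regulators and RNA-binding proteins that the embryo uses before its own genome is switched on. It also takes up yolk, builds the egg coat and gathers germ plasm, the material from which the germ cells of the next generation form. Because oocytes make up most of an adult ovary, such maternal transcripts dominate its RNA, while a testis consists mainly of developing sperm cells. In whole gonads, fewer cells of a type and less RNA per cell cannot be told apart, and this applies to every value below.

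The females had from 8311132 to 13821205 gene counts per library and the males from 4043394 to 9674058. The 200 genes took 11.5% to 13.3% of these reads in the 8 females (median 12.4%), against 0.154% to 0.224% in the 8 males (median 0.199%). Normalized read counts are counts divided by the size factor of the library and not by gene length, so their size also depends on gene length and does not rank genes by transcript number. The fish carried the gonad their labels name: the summed normalized count of the late male germ cell markers lay between 70.3 and 170 in females and between 7061 and 19613 in males.

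All 200 genes had more than 3 counts in every female, whereas between 157 and 186 of them had more than 3 counts in a given male. In 140 of them all 8 males were over 3 counts, so the genes are better called enriched in ovary than restricted to it. In 4 genes, *zgc:113984*, *zgc:173770*, *si:ch1073-75o15.4* and *si:dkeyp-98a7.8*, no male had more than 3 counts. The lowest female was above the highest male in all 200 genes. This held for 54.5% of the 3007 genes with the minimum, and since the genes were ranked on this contrast nothing is read from it. The median fold of the female mean over the male mean was 37.3, with 76 genes over 100-fold and 23 over 1000-fold. The median log2 ratio was 5.21 for the 200 genes and 1.01 for the 3007.

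**Figure D1:**
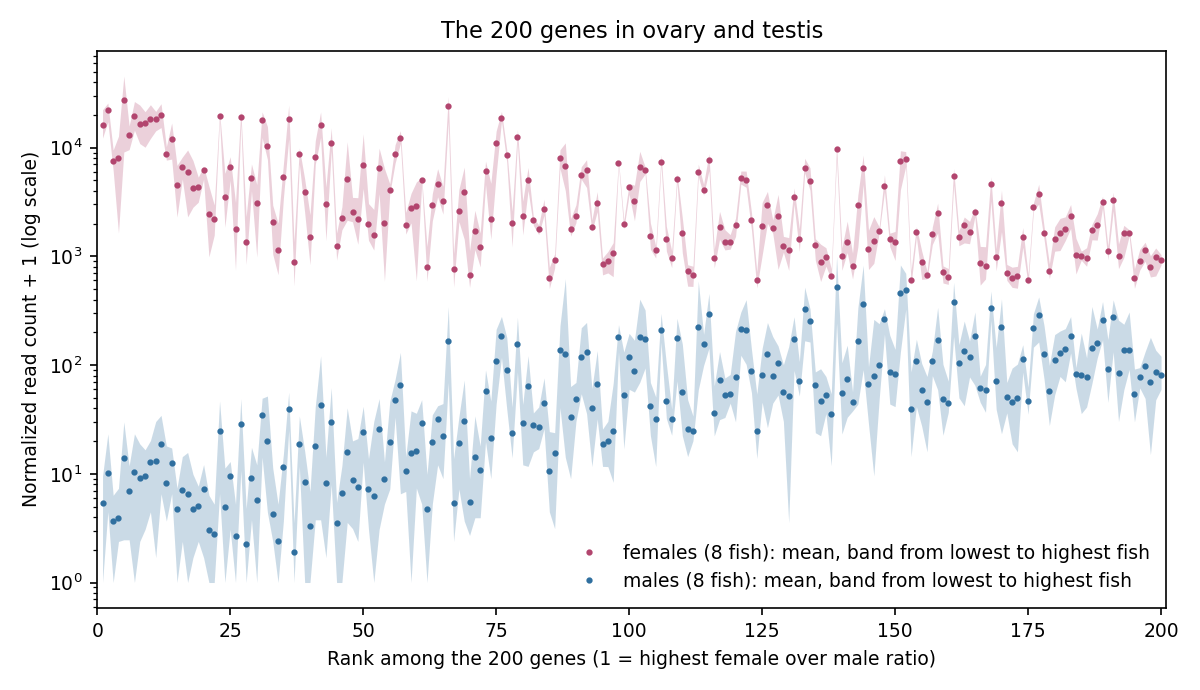
Normalized read count plus 1 (log scale) of each of the 200 genes against its rank, with the mean of 8 females (upper) and 8 males (lower) as points and bands from the lowest to the highest fish. The female and male bands do not meet at any rank, and the male means lie between 0.916 and 525.9 while the female means lie between 599 and 27149.

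The list ends without a step. The last members, *syt13* (a synaptotagmin, a family of membrane trafficking proteins) and *si:ch73-204p21.2*, had log2 ratios of 3.52 and 3.505. The genes just outside, *golga3* and *prmt9*, both had 3.49.

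The head of the ranking was held by genes that are named only by clone or cDNA project, and 41 of the first 50 ranks carried such names or none, against 4 of the last 50. The first was *zgc:171750*, with 12231 normalized counts in the lowest, 15636 in the median and 22274 in the highest female, against 0, 5.25 and 8.52 in the lowest, median and highest male. Next came *si:ch211-146l10.8*, with 17328, 22988 and 25708 in females against 3.46, 7.21 and 22.3 in males. *si:ch211-199m8.2* followed with 6159, 7309 and 9510 in females against 0, 2.36 and 5.35 in males. In all 3 genes the male values were those of a handful of reads, and more than 3 counts were reached in 3, 7 and 1 of the 8 males.

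The other named genes among the first 12 were *si:dkey-229d11.3*, *zgc:152652*, *si:ch73-160p18.3*, *zgc:173856*, *zgc:171474*, *zgc:171977*, *si:ch211-146l10.7*, *wu:fi42e03* and *zgc:111868*. No role is given for any of them in the sources used here. Their female means were between 1138 and 2774 times their male means. *zgc:152652* varied widely among EM-females, with 45509.7 in replicate 2 of the 100 μg/L fish and 9109.9 in replicate 2 of the 200 μg/L fish.

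Several of these genes stand side by side in the genome. By symbol, 155 of the 200 genes could be placed uniquely in the gene order of the RefSeq annotation of assembly GRCz12tu, which is a later build than the one the reads were mapped to and was used for gene order only. With at most 3 other genes allowed in between, 28 of the 155 (18.1%) had another of the 200 as a neighbour. Among the other genes with the minimum that could be placed, 67 of 1503 (4.46%) had one of the 200 as a neighbour. The 28 genes formed 8 runs, of which 4 held 3 or more genes.

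The first run held 7 genes, in the order *zgc:171977*, *zgc:152652*, *si:ch211-146l10.7*, *zgc:171750*, *zgc:171474*, *zgc:173856* and *si:ch211-146l10.8*, and 7 of the first 10 ranks were these genes. Only between the first 2 of them did another gene stand. Together they took a mean of 14.9% of the summed normalized counts of the 200 genes in females, a share of reads not corrected for gene length. Their sum was 178510 in replicate 2 of the 50 μg/L EM-females and 189724 in replicate 2 of the 100 μg/L EM-females, and 89303 in replicate 2 of the 200 μg/L EM-females, with 127710 and 103688 in the control females. In males it did not pass 132 in any fish.

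The second run also held 7 genes, *si:ch211-145c1.1*, *si:dkey-90l23.2*, *si:dkey-90l23.1*, *si:ch1073-75o15.4*, *zgc:171776*, *si:ch1073-75o15.3* and *zgc:153499*, ranked between 16 and 65. Genes of this run differed in evenness: *si:dkey-90l23.2* varied little among females (coefficient of variation, the SD over the mean, CV, 0.0828), while *si:ch1073-75o15.3* (0.431), *si:ch1073-75o15.4* (0.398) and *zgc:153499* (0.390) varied more. The shorter runs were *lectin*, named for a carbohydrate-binding protein, with 2 clone-named genes beside it, and *si:ch1073-263o8.2*, *si:dkey-229d11.5* and *si:ch211-263m18.4*. Among the pairs was *mfsd2aa*, of a family of lipid transporters, beside *mycla*, of the Myc family of transcription factors. Reads that matched more than 1 place were left out of the gene counts, between 33.5% and 36.7% of the tallied reads in females and between 24.8% and 31.7% in males, so the counts of near-identical neighbouring copies are uncertain.

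**Figure D2:**
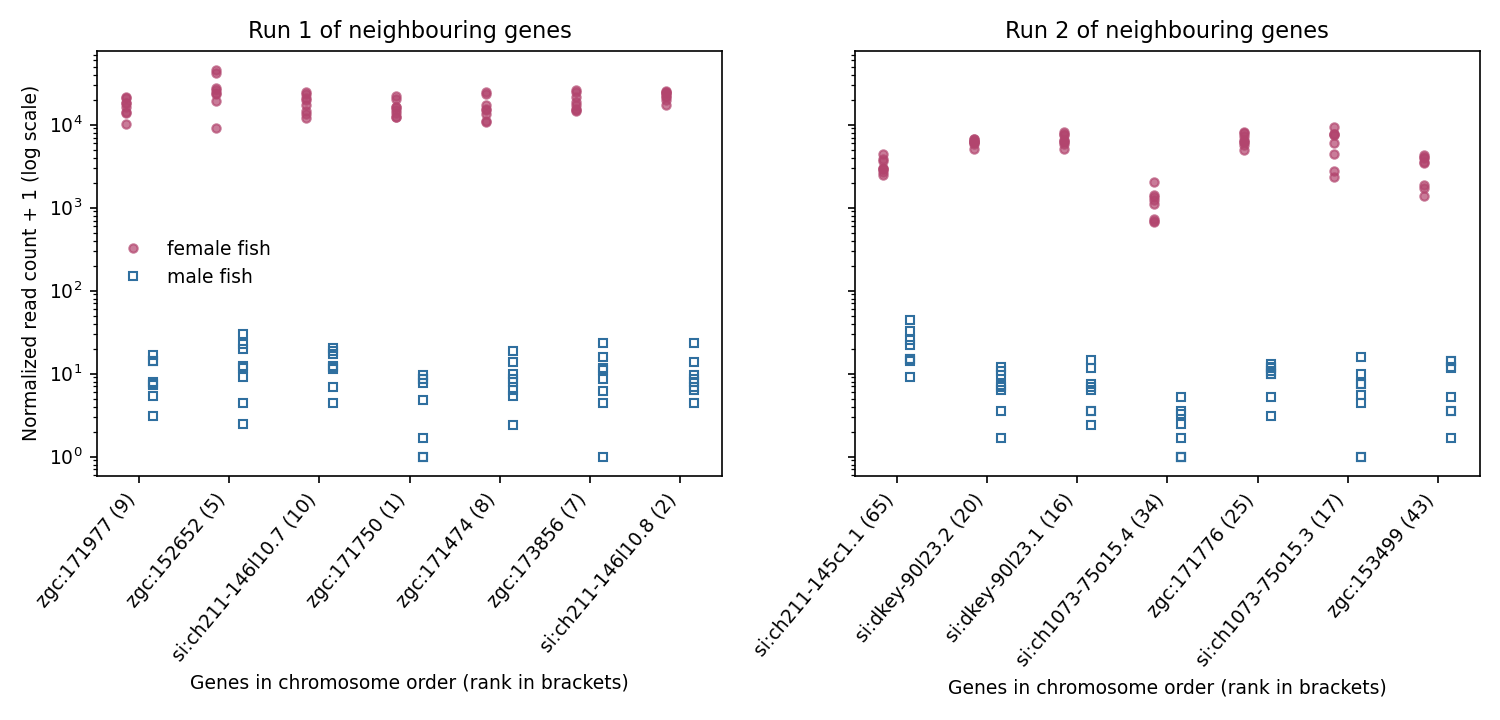
Normalized read count plus 1 (log scale) in each of 8 female fish (filled circles) and 8 male fish (open squares) for the genes of the 2 longest neighbour runs, in chromosome order with the rank in brackets. In the first run every female is at 9109.9 or above and every male at 29.0 or below, and in the second run the females of *si:ch1073-75o15.3* are spread between 2308 and 9505.

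The genes with known roles were sorted by 10 lists of maternal and oocyte functions. Of the 170 listed genes that could be identified, 22 were among the 200. Genes named in the following paragraphs that are not on a list were chosen after their values were seen.

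Among regulators of transcription, *nanog*, which activates the genome of the early embryo, had 2014, 3219 and 3952 normalized counts in the lowest, median and highest female, against 25.6, 110 and 245 in the males. *zglp1*, a GATA-type zinc finger gene required for oocyte fate in mice, had 2077, 2517 and 3484 in females against 2.13, 6.14 and 19.1 in males. OTX1, so named in the reference table and of the Otx homeobox family, had 1534, 1681 and 2227 in females against 8.02, 33.3 and 62.5 in males. All 3 were thus far apart in the sexes, and *nanog* varied most among females (CV 0.260).

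The only member from the list of germ plasm and piRNA genes was *buc*, the organizer of the Balbiani body in which germ plasm gathers in the oocyte. It had 11143, 12415 and 14644 in females against 85.2, 134 and 274 in males. Its relative *buc2l*, chosen after its values were seen, had 4638, 5156 and 5302 in females against 4.26, 30.1 and 47.0 in males, and was among the most even of the 200 genes between females (CV 0.0442). The listed genes *dazl* and *piwil1*, germ cell genes of both sexes that are not among the 200, averaged 925 and 797 in females and 4049 and 6901 in males. Other listed genes outside the 200 went the other way. Examples, chosen after their values were seen, were *nanos3*, with 301 in females and 4.86 in males, and *grip2a*, with 606 and 238. Both stayed under the minimum in at least 1 female.

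Maternal RNA storage and translation gave 6 members. *cpeb1b* encodes a protein that binds the tails of stored messages and controls their polyadenylation, and had 6130.06, 8055 and 8782 in females against 142, 326 and 455 in males. *patl2*, a repressor of translation in oocytes, had 3717, 4489.9 and 4682 in females against 58.8, 108 and 195 in males. *pabpc1l*, the embryonic poly(A)-binding protein, had 1584, 1755 and 1942 in females against 16.0, 25.4 and 40.2 in males. These 3 genes had CVs of 0.138, 0.0774 and 0.0810 among females, against a median of 0.122 over the 3007 genes with the minimum. The others were *lsm14b*, a component of oocyte RNA granules, *slbp2*, an oocyte form of the protein that binds the stem-loop of histone messages, and *42sp43*, whose frog counterpart stores 5S RNA in young oocytes. Their female means were 29.2, 48.2 and 83.2 times their male means. Further RNA-binding genes were RBPMS2, *larp6a*, *larp6b* and *cth1*, the last a zinc finger protein gene, and *caprin2*, which acts in RNA regulation and Wnt signalling.

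Maternal chromatin gave *h1m*, the linker histone of the egg and early embryo, and the nucleoplasmins *npm2a* and *npm2b*, which hold histones in the egg. *h1m* had 12379.8, 16585 and 21289 in females against 2.77, 26.6 and 121 in males, and among males it was the least even of the 3, with 121 in replicate 1 of the 200 μg/L EM-males and 2.77 in replicate 2 of the control males. *npm2a* had 620, 680 and 730 in females against 14.9, 41.5 and 77.6 in males. *npm2b* had 4517, 5520.5 and 6439 in females against 182, 385 and 575 in males. *h2af1al*, named as a histone H2A gene, was the chromatin gene with the highest rank, 32, and returns below.

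For the cell cycle, *ccna1*, the cyclin A of germ cells and early embryos, had 4095, 7865 and 9357 in females against 131, 459 and 832 in males. For DNA replication, *mcm3l*, a maternal relative of the replicative helicase subunit MCM3, had 613, 864 and 1121 in females against 26.5, 51.7 and 103 in males. *cdt1*, which loads that helicase, had 2624, 3318 and 3879 in females against 131, 251 and 397 in males. These 3 genes lie in the last 50 ranks. Of 36 identified cell cycle genes 1 was among the 200, and of 21 identified replication genes 2 were. *pcna*, the sliding clamp, is one of those outside and averaged 4656 in females and 2817 in males. The listed genes outside the 200 ranged widely. *ccnb2* averaged 7215 in females and 698 in males and *rrm1* 7410 and 862, whereas *mcm7* averaged 2969 in females and 3724 in males.

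Of the growth factors, *bmp15*, made by the oocyte and known in zebrafish to be needed for the maintenance of females, had 1920.1, 2156 and 2283 in females against 14.9, 26.9 and 35.3 in males. Its CV among females was 0.0542, one of the lowest. *gdf3*, the zebrafish Vg1 that patterns the embryo with Nodal, had 4620.4, 5158 and 6090 in females against 122, 209 and 306 in males.

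Egg coat genes named in the study's tables were left out, yet 4 of the 200 genes carry a zona pellucida name in the reference table. *zpax1* had 17388, 24669.8 and 29490.3 in females against 67.9, 156 and 343 in males, and *zp3e* had 16848, 18639.6 and 21824 in females against 9.70, 27.96 and 48.1 in males. *zp3f.1* (4214, 5033 and 13356 in females) and *zpax2* (1784, 1984 and 2149 in females) completed them. They differed in evenness: the CV among females was 0.504 for *zp3f.1* and 0.0532 for *zpax2*.

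Of the adhesion genes, the claudins *cldnd* and *cldng*, tight junction proteins, had 9392, 9952 and 15187 and 7186, 8398 and 10645 in females. In males they had 6.93, 25.9 and 61.0 (*cldnd*) and 32.1, 38.9 and 72.7 (*cldng*). For yolk, *vldlr*, the receptor family through which oocytes take up vitellogenin, had 5444, 5916 and 7039 in females against 58.1, 134 and 592 in males. The 2 highest males for *vldlr* were replicate 2 of the 200 μg/L EM-males (592) and replicate 1 of the control males (449). These 2 libraries also had the highest summed smooth muscle and stroma markers among males, 18503 and 13158. The same held for the macrophage markers, 8950 and 8524, and the endothelium markers, 1468 and 2184. Their depth was 4879536 and 4043394 counts on genes. A link of *vldlr* with any of these was not tested.

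The genes picked for a high mean read count in males, not corrected for gene length, were *lamp2*, a lysosomal membrane protein, *pdia4*, a protein folding enzyme of the endoplasmic reticulum, *ccna1* and *npm2b*. *lamp2* had 7947, 10037 and 10650 in females against 242, 506 and 997 in males. The male means of these 4 genes were 525.9, 490, 462 and 378. At the other end stood *si:dkeyp-98a7.8*, *zgc:173770*, *si:ch1073-75o15.4* and one of the clone-named neighbours of *lectin*, with male means between 0.916 and 1.65.

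Maternal genes with roles in the egg or in the first divisions, chosen after their values were seen, were also found along the ranking. *retsatl*, related to retinol saturase, had 18276, 19007 and 21352 in females against 5.54, 21.7 and 45.8 in males. *kpna7*, an importin of the oocyte, averaged 12154 ± 990 in females and 64.4 ± 38.1 in males (SD, n = 8 each). *bmb* (brambleberry), needed for fusion of the nuclear envelopes in the cleaving zebrafish embryo, averaged 3543 ± 389 in females and 173 ± 72.2 in males. *sybu* (syntabulin), which carries the dorsal determinant in the zebrafish egg, averaged 3093 ± 874 in females and 223 ± 144 in males. *foxo3a*, a transcription factor that in mice holds follicles at rest, averaged 697 ± 86.1 in females and 49.7 ± 11.5 in males.

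Among the 8 females the 200 genes had a median CV of 0.166, and the 3007 genes with the minimum one of 0.122. The CV was under 0.1 in 38 genes and over 0.3 in 28, of which 23 carry only a clone or project name or none. Of all 200 genes, 78 do. Genes with such names or none had a median CV of 0.225, and genes with other symbols one of 0.142. Members of the 4 runs of 3 or more neighbours had a median CV of 0.247, against 0.160 for the other members. The median CV was 0.230 over ranks 1 to 50, 0.164 over ranks 51 to 100, 0.141 over ranks 101 to 150 and 0.141 over the last 50. Such names were also most frequent in the first ranks, so the contrasts by name and by run were not separated from rank.

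MFAP4, named after a microfibril-associated glycoprotein, was the most uneven, with 713, 1649 and 6434 in the lowest, median and highest EM-female, and 933 and 590 in the control females. Its highest value stood in replicate 1 of the 200 μg/L EM-females, while replicate 2 of the same group had 754. *si:dkey-46g23.2* had 2147, 5614 and 11318 in EM-females and 3009 and 2460.2 in control females, and again replicate 1 of the 200 μg/L EM-females was highest. For both genes fish of the same concentration differed as much as fish of different concentrations.

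Single fish stood low in other genes. *cth1* had 595 in replicate 2 of the 50 μg/L EM-females, against 2522 to 4832 in the other EM-females and 1514 and 3636 in the control females. *si:dkey-229d11.3* had 1636 in replicate 2 of the 200 μg/L EM-females, against 6488 to 12730.0 in the other EM-females and 11377 and 6303 in the control females. The range over the females exceeded 5-fold in 4 genes, these 2, MFAP4 and *si:dkey-46g23.2*. The most even genes were *rdh10b*, a retinol dehydrogenase of retinoic acid synthesis, with 6945 to 7752 in all females, *buc2l*, *tmem144b* and *sh3gl1a*.

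**Figure D3:**
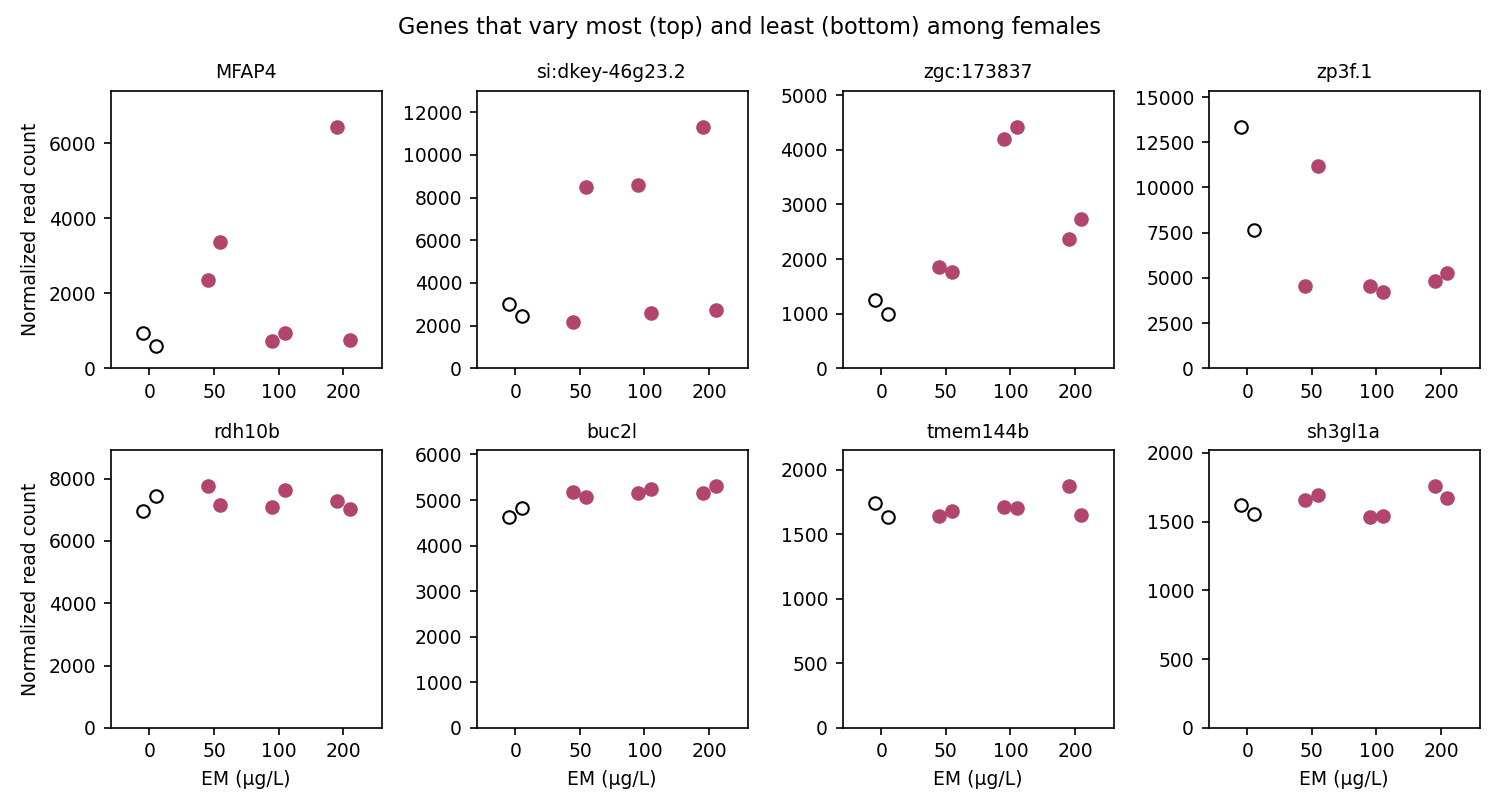
Normalized read count in each of 8 females by EM concentration (0, 50, 100 and 200 μg/L, 2 fish each, control fish as open circles) for the 4 genes with the highest (top) and the 4 with the lowest (bottom) coefficient of variation. MFAP4 is at 6434 and 754 in the 2 fish at 200 μg/L, whereas *rdh10b* stays between 6945 and 7752.

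The first question of the study's design is whether EM changed ovarian expression. In EM-females against control females, none of the 200 genes passed an adjusted p of 0.05 in edgeR's quasi-likelihood test with Benjamini-Hochberg adjustment over the 15907 genes tested, where 0.0126% of all genes passed. At an unadjusted p under 0.05 there were 41 of the 200 genes (20.5%), 22 higher and 19 lower in EM-females, against 11.7% of all genes. The split of directions turned on single fish: it was 11 higher and 22 lower without replicate 2 of the control females, 23 higher and 12 lower without replicate 1, and 13 higher and 21 lower without replicate 2 of the 100 μg/L EM-females. The same number, 41, had EM-females and control females that did not overlap, 26 higher and 15 lower in EM-females, against 15.2% of all genes (9.13% higher and 6.06% lower). DESeq2 called 11 of the 200 genes, 4 higher and 7 lower, against 2.72% of all genes it gave an adjusted p. In simulated data for this comparison DESeq2 recovered 63 of 100 genes changed at a log2 fold change of 2, against 53 for edgeR. It also called 61 unchanged genes, against 9 for edgeR. The median log2 fold change was 0.02 over the 200 genes and 0.01 over all genes tested. Of the 200, 88.5% lay within 0.5 in either direction, against 68.8% of all genes. The 200 genes had to reach the minimum count in each female, whereas all genes tested include genes with fewer counts. Shares over the other genes with the minimum were not computed. Nothing is therefore read from the contrasts of the 200 with all genes, here or for the concentration trend below.

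The share of reads on the 200 genes was 11.5% to 13.3% in EM-females, against 12.5% and 11.6% in the control females. The control females also differed from the EM-females in sequencing depth and in markers of other cells. They had 9374756 and 8311132 counts on genes, while the EM-females had 9275513 to 13821205. The 18 liver markers summed to between 53.9 and 564 in EM-females, against 4847 and 113 in the control females, and 5 to 14 of them had more than 3 counts in an EM-female, against 18 and 10 in the control females. The 14 identified late male germ cell markers summed to between 70.3 and 108 in EM-females, against 170 and 153 in the control females, and 4 to 9 of them had more than 3 counts in an EM-female, against 7 in each control female. The 14 early and meiotic germ cell markers summed to between 4232 and 5200 in EM-females, against 3590 and 3857 in the control females. The 7 identified smooth muscle and stroma markers summed to between 152 and 266 in EM-females, against 118 and 121 in the control females. The part of these differences in the values below was not tested.

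Of all 200 genes, *h2af1al*, named as a histone H2A gene, had the smallest adjusted p. It had 7781, 8754 and 9996 in the lowest, median and highest EM-female, against 15636 and 14831 in the control females. The groups did not overlap, and every EM-female was under both controls. The log2 fold change was -0.82 ± 0.0987 (SE), with an edgeR adjusted p of 0.0637, just over the threshold, and a DESeq2 adjusted p of 2.55e-07. With 50, 100 or 200 μg/L alone against control it was -0.91, -0.88 and -0.71 (edgeR adjusted p = 0.554, 0.404 and 0.446). Without replicate 1 of the control females, the library with the high liver markers, the log2 fold change was -0.79 (edgeR adjusted p = 0.151), a fit of 6 EM-females against 1 control fish that is assumed to vary like the EM-females. The EM-females had 8565 and 8085 at 50 μg/L, 7781 and 9219 at 100 μg/L and 8944 and 9996 at 200 μg/L. Both fish at 200 μg/L were thus above both at 50 μg/L, while the fish at 100 μg/L overlapped with both.

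*si:dkey-163f14.5* had 2084, 2246 and 2585 in EM-females against 4126 and 3318 in control females, a log2 fold change of -0.74 ± 0.112 (edgeR adjusted p = 0.127). *snx10a*, a sorting nexin of endosomes, had 543, 713 and 930 in EM-females against 1212 and 1234 in control females, a log2 fold change of -0.75 ± 0.176 (edgeR adjusted p = 0.216). *lipg*, a phospholipase that acts on lipoproteins, had 1130.1, 1471 and 1754 in EM-females against 2226 and 2232 in control females, a log2 fold change of -0.66 ± 0.144 (edgeR adjusted p = 0.188). The EM-females were under both control females in each of these genes.

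The other genes that DESeq2 called lower were *cldnd*, *siva1*, a gene linked to apoptosis, and *si:ch211-199m8.2*. *cldnd* had 9392, 9788 and 11140.5 in EM-females against 15187 and 13379 in control females, a log2 fold change of -0.55 ± 0.0906 (edgeR adjusted p = 0.168). *siva1* had 5862, 6069.9 and 6399.8 in EM-females against 7865 and 7974 in control females (log2 fold change -0.41, edgeR adjusted p = 0.168). *h1m* and *bmb* were likewise under both control females in every EM-female, at 12379.8 to 17089.9 against 21289 and 17601 for *h1m* and at 3029 to 3726 against 4253 and 3853 for *bmb*, and neither was called by DESeq2.

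On the higher side, *si:ch1073-75o15.3* of the second neighbour run had the largest difference among genes whose groups did not overlap. It had 4399.5, 7556 and 9505 in EM-females against 2799 and 2308 in control females, a log2 fold change of 1.45 ± 0.260 (edgeR adjusted p = 0.168, DESeq2 adjusted p = 8.43e-05). The study's tables give this identifier the symbol *ddx41*, while the reference table gives the clone name, so no role is taken from either. Its neighbour *si:ch1073-75o15.4* went the other way, with 678, 922 and 1403 in EM-females against 2020 and 1233 in control females, groups that overlapped.

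*zgc:173837* had 1756, 2547 and 4422 in EM-females against 1258 and 989 in control females, a log2 fold change of 1.33 ± 0.401 (edgeR adjusted p = 0.281). Within EM-females the 2 fish at 100 μg/L were highest, at 4192 and 4422. *zgc:173770* had 1002, 1309 and 2321 in EM-females against 891 and 841 in control females, a log2 fold change of 0.79 ± 0.353 (edgeR adjusted p = 0.432), the only one of these 4 genes that DESeq2 did not call. *si:ch73-90k17.1* had 4766, 5910 and 7006 in EM-females against 3872 and 3407 in control females, a log2 fold change of 0.68 ± 0.133 (edgeR adjusted p = 0.173). The fourth gene that DESeq2 called higher was *prr36a*, with 3081, 3454 and 4512 in EM-females against 2122 and 2437 in control females.

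Other genes with known roles differed by less. *cpeb1b* had 7091, 8469 and 8782 in EM-females against 6354 and 6130.06 in control females (log2 fold change 0.37, edgeR adjusted p = 0.234), with every EM-female above both controls. *buc2l*, with its narrow spread, had 5071 to 5302 in EM-females against 4638 and 4833 in control females (log2 fold change 0.10, edgeR adjusted p = 0.589). *zpax1* had 22491, 25882 and 29490.3 in EM-females against 22259 and 17388 in control females (log2 fold change 0.35, edgeR adjusted p = 0.328). For *bmp15* the 6 EM-females, at 1920.1 to 2283, enclosed both control females, at 2139 and 2195.

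**Figure D4:**
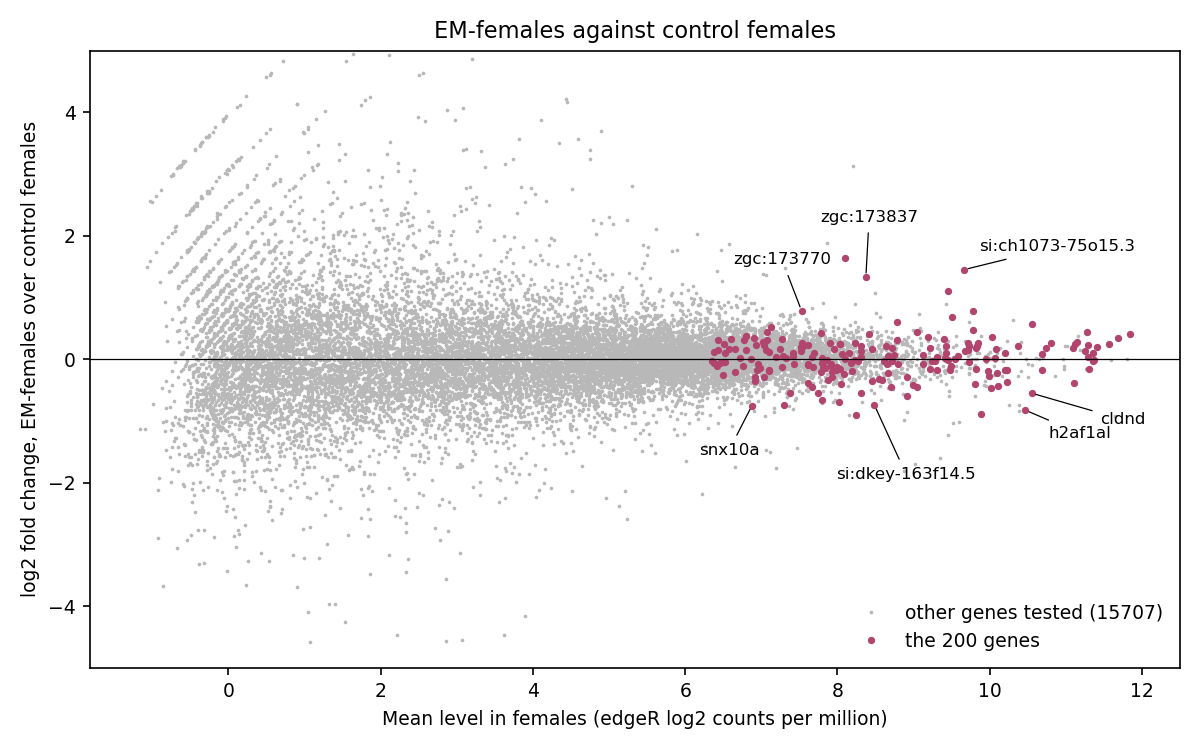
Log2 fold change of EM-females (6 fish) over control females (2 fish) against the mean level in females for the 200 genes (dark points) and 15707 other genes tested (grey), of which 53 lie outside the plotted range of 5 in either direction. The 200 genes lie near 0 and at the right, where the minimum count in each female places them. None passed an adjusted p of 0.05 in edgeR.

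**Figure D5:**
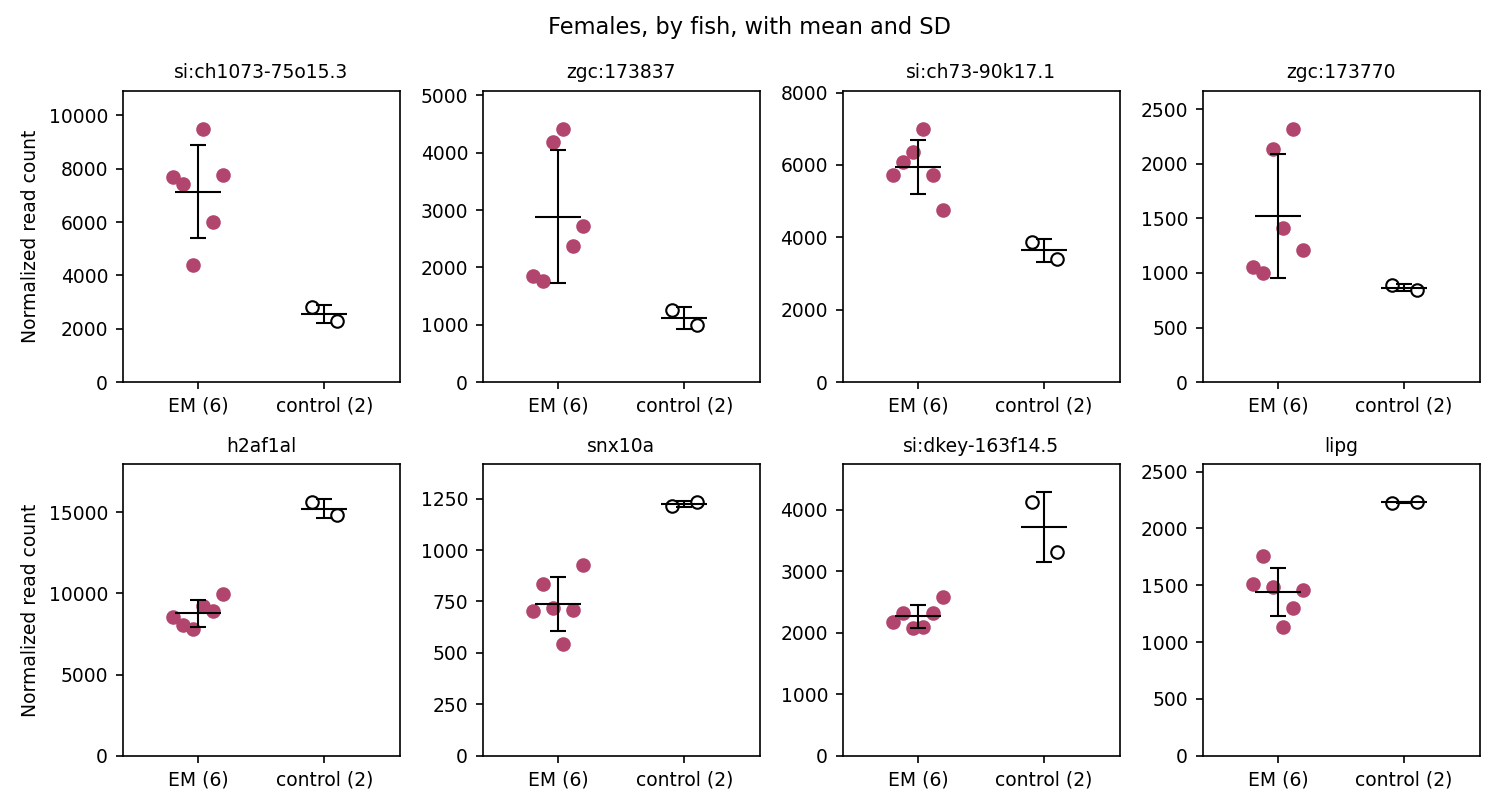
Normalized read count in each of 6 EM-females (filled) and 2 control females (open), with mean and SD, for the 4 named genes with the largest (top) and the 4 with the most negative (bottom) log2 fold change among those whose groups do not overlap. *h2af1al* lies between 7781 and 9996 in EM-females and at 15636 and 14831 in the control females.

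Of the 170 identified genes on the 10 function lists, 160 were tested in females and 0 were called higher or lower by edgeR, with 37 (23.1%) at an unadjusted p under 0.05, against 11.7% of all genes. DESeq2 called 12 of the 156 it gave an adjusted p (7.69%), against 2.72% of all genes. The lists were chosen with earlier results of these data known, and many of their genes had the minimum in each female. All genes tested include genes with fewer counts, and shares over the other genes with the minimum were not computed. Nothing is therefore read from these contrasts of the listed genes with all genes. The median log2 fold change was 0.01 over the 160 genes, and between -0.34 and 1.17 over the single lists. For meiotic maturation and the cell cycle it was -0.20, with 13 of 34 genes at an unadjusted p under 0.05 and a summed normalized count of 57718 to 67811 in EM-females, against 72795 to 75097 in control females. For yolk uptake and the lysosome it was 1.17, with 4 of 9 genes at an unadjusted p under 0.05. The sums were 15756 to 17512 in EM-females, against 15648 to 16548 in control females. Of the 200 genes, the cell cycle list holds only *ccna1* and the yolk list only *vldlr*, so these values mostly describe other genes. On the yolk list 3 of the 9 genes had the minimum in each female. *ctsh*, *ctsl.1* and *ctss2.2* averaged 18.9, 19.0 and 20.5 in females, so its median is taken partly over genes with few counts.

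The trend with concentration was fitted among the 6 EM-females as a slope per doubling of the concentration. None of the 200 genes passed in edgeR over 14854 genes tested, where 0% of all genes passed. At an unadjusted p under 0.05 there were 10 of the 200 (5%), against 4.22% of all genes, and DESeq2 called 0 of the 200, against 0.726% of all genes. For *h2af1al* the slope was 0.10 on the log2 scale (edgeR adjusted p = 1.00), and for *si:ch1073-75o15.3* it was -0.06 (edgeR adjusted p = 1.00). *sybu* was lowest in the fish at 200 μg/L, with 1892 and 1685 against 3398 to 4064 in the other EM-females and 3182 and 3020 in the control females. Its slope was -0.52 ± 0.142 (edgeR adjusted p = 1.00, DESeq2 adjusted p = 0.0756).

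Many of the 200 genes had few counts in males, above all in the first ranks. Whether EM raised or lowered them in males could be tested for only part of the 200. After the filter on low counts 159 of the 200 remained, 17 of the first 50 ranks and all of the last 100. A gene passes that filter only where enough males reach the minimum, so nothing is read from the median of the genes that remained. None passed in edgeR's test of EM-males against control males over 19417 genes, where 0.00515% of all genes passed. In simulated data for this comparison edgeR recovered 2 of 100 genes changed at a log2 fold change of 2, so little is read from this. At an unadjusted p under 0.05 there were 10 of the 159, against 6.12% of all genes, and DESeq2 called 0 of the 200, against 0.68% of all genes. EM-males and control males did not overlap in 19 of the 159, against 8.31% of all genes.

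The summed normalized counts of the 200 genes lay between 14959 and 17119 in EM-males, against 16671 and 14541 in control males. One library stood low in the first ranks: over ranks 1 to 50 the sum was 393 to 769 in EM-males, against 511 and 188 in control males, the lower being replicate 2. Over ranks 51 to 100 both control males, at 1834 and 1652, were under every EM-male, at 2051 to 3794. Over ranks 101 to 150 the control males, at 7342 and 5113, enclosed the EM-males, at 5256 to 6878. Over the last 50 ranks replicate 2 of the control males was instead the highest, at 7589, against 7288.8 or less in the other males. The control males that differ here also differed in depth, with 4043394 and 9674058 counts on genes. Markers of other cells differed too. The 10 identified Leydig and Sertoli cell markers summed to between 10942 and 19012 in EM-males, against 31801 and 23982 in control males. The 18 liver markers summed to between 1098 and 31208 in EM-males, against 27425 and 3574 in control males. The part of these differences in the male values was not tested.

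*caprin2* had 95.8, 134 and 246 in EM-males against 34.8 and 65.1 in control males, a log2 fold change of 1.61 ± 0.527 (edgeR adjusted p = 0.748). *zgc:171445* had 29.0, 39.4 and 41.2 in EM-males against 16.0 and 11.1 in control males, a log2 fold change of 1.44 ± 0.492 (edgeR adjusted p = 0.759). In *pofut1*, a fucosyltransferase of the Notch pathway, the EM-males were lower, at 13.4, 25.8 and 36.2, against 85.6 and 57.5 in control males, a log2 fold change of -1.40 ± 0.469 (edgeR adjusted p = 0.759). The groups did not overlap in any of the 3, which were chosen after their values were seen.

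Whether EM acted differently in the sexes was tested as an interaction over all 16 libraries. None of the 200 genes passed in edgeR over 22106 genes tested, where 0% of all genes passed. In simulated data for the interaction edgeR recovered 3 of 100 genes changed at a log2 fold change of 2, so little is read from this. At an unadjusted p under 0.05 there were 38 of the 200, against 7.6% of all genes. All 200 genes entered this fit because they are high in females, the property they were chosen for, and 41 of them failed the filter when males were taken alone, so nothing is read from this count. DESeq2 called 2 of the 200 genes, against 0.571% of all genes. These were *si:dkey-163f14.5*, with an interaction of -2.22 ± 0.494 (edgeR adjusted p = 0.279, DESeq2 adjusted p = 0.00559), and *pofut1*, with 1.51 ± 0.411 (edgeR adjusted p = 0.422, DESeq2 adjusted p = 0.0220). For *si:dkey-163f14.5* the male counts were low, 8.52 to 32.5 in EM-males against 10.7 and 6.24 in control males, and for *pofut1* the females barely differed, with 547 to 739 in EM-females against 584 and 549.7 in control females.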

How the data were processed

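Gonad RNA of 16 adult zebrafish was sequenced. The authors aligned the reads to GRCz11 (Ensembl v95) by Hisat2 (2.0.5), discarded PCR duplicates in Samtools (1.5) and summed reads over genes by HTSeq (0.9.1), which skips reads with several matches. The deposited counts are whole numbers with no scaling, and 1 cell that held 2 values was read as 2. The deposited normalized signal is the count divided by a single size factor per library. The study states normalization by DESeq2, whose size factors were not recomputed for this check. The 5 HTSeq tallies were not used as genes.

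The main test was the robust quasi-likelihood F-test of edgeR 4.0.16 (R 4.3.3), after TMM scaling and filterByExpr, and each fit held only the samples of its comparison. P-values were adjusted over all genes tested (Benjamini-Hochberg, threshold 0.05). The SE beside a log2 fold change, slope or interaction was worked back from the test. It is the size of that value divided by the square root of its F value. The scripts were tested on simulated data, drawn for all genes that passed the filter with the spread between fish that edgeR estimated. Per comparison, 100 genes were changed at a log2 fold change of 2 and 100 at 3. Of these edgeR recovered 53 and 63 in females, 2 and 15 in males and 3 and 34 in the interaction. DESeq2 recovered 63 and 80 in females, 37 and 73 in males and 17 and 59 in the interaction. It also called 61 unchanged genes in females, 83 in males and 38 in the interaction, against 9, 1 and 1 for edgeR. Alternatives were DESeq2 1.42.0, its size factors in edgeR, no filter, a model of all libraries, single concentrations, a replicate block and leaving out each fish.

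The genes and lists were chosen with earlier results of these data known. Symbols came from the reference table or, where it gives a human-style symbol, from the study's tables (196 of 200). Genes were named by rule: the first 12 with a symbol, members of the function lists, any called, the 4 largest and 4 most negative log2 fold changes in females without overlap, the 4 highest and 4 lowest male means, the last 2 ranks and 2 outside, the 3 highest female means and the 3 largest CVs. No sequences are shown.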

Additional observations from a re-analysis of the deposited data

Results flagged for a closer look

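In 4 of the 58 sets of 6 EM fish examined, 1 fish stood apart from the other 5 by Dixon's criterion, where chance alone would mark about 1 set in 20. Replicate 2 of the 100 μg/L EM-females was highest in 3 of them. It had 4511.5 normalized counts for *prr36a*, against 3081 to 3518 in the other EM-females. For *lsm14b*, of oocyte RNA granules, it had 5768, against 4866 to 5192. For *vldlr*, of the yolk receptor family, it had 7039, against 5817 to 6246. Replicate 2 of the 200 μg/L EM-females had 11140.5 for *cldnd*, a claudin, against 9392 to 10020.2 in the other EM-females, and was still under both control females.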

How the results depend on the processing

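In females, the count of the 200 genes called was 0 in edgeR, 11 with DESeq2 and 1 without the filter on low counts. It was between 0 and 1 when each fish was left out, the 1 being *h2af1al* without replicate 2 of the 200 μg/L EM-females (adjusted p = 0.0341), as it was without the filter (adjusted p = 0.0141). The interaction gave 0 in edgeR and 2 with DESeq2. The other alternatives, and all of those for males and for the concentration trend, gave 0. Over all genes tested in females, edgeR called 2 and DESeq2 391. Of the 23 single-gene fold changes, slopes and interactions recomputed, 22 kept their sign in every alternative. The exception was the slope of *si:ch1073-75o15.3*, between -0.16 and 0.0050 when each EM-female was left out. The log2 fold change of *zgc:173837* ranged between 0.64 and 1.90, and that of *zgc:173770* between 0.21 and 1.01. Same-numbered fish of different groups did not deviate together in females (correlations between -0.02 and 0.02). In males the correlations were 0.14 to 0.31 between EM groups and -0.30 to -0.21 between EM-males and control males. Same-numbered EM-males thus deviated together to some degree, and against the control males. The numbers were not taken as pairs, and the fit with the replicate block called 0 of the 200 genes in each of the 4 comparisons. Of the 200 genes, 139 were shared with a minimum of 1000, which only 139 of them reach, 179 with a ranking on control fish alone, 192 with medians and 197 with TMM-scaled CPM, which moved the median log2 ratio of the 3007 genes by 0.29, and between 193 and 200 when each fish was left out. In 60 of the 200 genes at least 1 male had 3 counts or fewer, which limits the comparison of EM-males. With 2 control fish per sex, 1 fish decides much of each control mean. The cause of the differences between tools was not tested.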
